A study of Mus musculus with 2 samples.

Results

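The Ikaros family genes are the 5 mouse genes Ikzf1 (Ikaros), Ikzf2 (Helios), Ikzf3 (Aiolos), Ikzf4 (Eos) and Ikzf5 (Pegasus), taken by symbol out of 20583 protein-coding genes with a usable transcription start site (TSS). They are described here by the binding of MEF2A, a MADS-box transcription factor that recognises an AT-rich element. MEF2A chromatin immunoprecipitation sequencing (ChIP-seq) was done in CH12.LX, an immortalized B cell lymphoma line of female mouse origin, strain B10.H-2aH-4bp/Wts, in 2 biological replicates from separate biosamples of the same donor line. No treatment is named, the replicates form 1 group with no second condition, and the control library was not analysed here. A peak was given to a gene when its summit lay inside the gene or within 50 kb of its TSS. Peaks came from the authors' optimal set (31497 peaks, mm10), filtered by irreproducible discovery rate, a measure of how well the ranks of a peak repeat between lists. Each peak has a signal given by the authors, used here to order and describe peaks inside 1 list, rank 1 being the strongest. The files are peak lists, so read depth is unknown, and a peak is a measure of occupancy near a gene, not of its expression.

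Ikaros family proteins are zinc finger transcription factors. The N-terminal fingers of most members bind DNA with a GGGAA core, and their C-terminal fingers join family members into dimers. Ikaros and Aiolos act in lymphocyte development, partly by bringing the NuRD deacetylase and remodelling complex to DNA, while Helios and Eos are best known from regulatory T cells. Pegasus is the most divergent member. Thalidomide analogues direct the cereblon ubiquitin ligase to Ikaros and Aiolos in human cells.

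MEF2A peaks were concentrated at Ikzf1 and Ikzf3. All 5 genes had at least 1 peak, where 70% of all protein-coding genes did, so the count of genes alone does not set the family apart. The 5 genes held 59 peaks in all, of which 28 were at Ikzf1, 20 at Ikzf3, 9 at Ikzf4, 1 at Ikzf2 and 1 at Ikzf5. Ikzf1 and Ikzf3 together held 48 of the 59 peaks (81.4%). The median protein-coding gene had 2 peaks.

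The sequences at the strongest and the most informative summits of the mm9 list, the only list whose build had a genome sequence, are shown first. Each is the 101 bases centred on a summit, on the plus strand of the mm9 reference and not a read of CH12.LX. The first set holds the strongest peaks of Ikzf3, Ikzf1 and Ikzf2, to show what lay at the most occupied positions. Capitals mark AP-1 elements (TGANTCA) in the first and an Ikaros element (TGGGAA, or TTCCCA on the other strand) in the third; the second and the fourth held none of the 14 element forms searched.
Ikzf3 intron, rank 272, chr11:98398917-98399017: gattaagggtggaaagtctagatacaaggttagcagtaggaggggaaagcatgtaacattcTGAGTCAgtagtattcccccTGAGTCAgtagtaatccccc
Ikzf3 upstream, rank 403, chr11:98408766-98408866: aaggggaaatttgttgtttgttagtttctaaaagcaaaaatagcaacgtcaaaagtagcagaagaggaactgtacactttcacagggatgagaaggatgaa
Ikzf1 intron, rank 595, chr11:11644330-11644430: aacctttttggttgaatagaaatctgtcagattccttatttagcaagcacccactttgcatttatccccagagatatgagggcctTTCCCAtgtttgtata
Ikzf2 intron, rank 3672, chr1:69590923-69591023: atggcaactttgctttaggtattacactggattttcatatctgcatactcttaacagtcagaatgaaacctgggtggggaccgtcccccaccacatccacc

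The second set holds every summit of the 5 genes with a form of the MEF2 element, which reads TA, then 4 bases that are each A or T, then TA, within 50 bp. Capitals mark the element: the full consensus with its outer bases in the first and the second, and overlapping copies of the shorter core in the third.
Ikzf3 window, upstream of Ormdl3, rank 6708, chr11:98450277-98450377: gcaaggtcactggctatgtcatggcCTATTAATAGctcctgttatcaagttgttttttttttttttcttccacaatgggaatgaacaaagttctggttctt
Ikzf1 intron, rank 13207, chr11:11591777-11591877: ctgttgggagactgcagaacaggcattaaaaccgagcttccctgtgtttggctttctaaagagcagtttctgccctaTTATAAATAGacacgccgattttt
Ikzf1 intron, rank 940, chr11:11616753-11616853: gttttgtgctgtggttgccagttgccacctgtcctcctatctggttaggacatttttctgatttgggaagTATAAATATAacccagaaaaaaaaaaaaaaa

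Ikzf1 encodes Ikaros, the founding member of the family. The gene lies at chr11:11684962-11772930 on the plus strand of mm10, and its 28 peaks came to 20.3 per 100 kb of a window of 138.0 kb. Only 15 genes (0.0729%) had as many peaks. A density as high was found at 0.0680% of genes, against a median of 1.98 per 100 kb over all genes. Of the 28 peaks, 21 lay inside the gene and 7 upstream of it. The peaks were crowded: up to 8 summits fell within 10 kb, which held for 0.311% of all optimal peaks. The signals at Ikzf1 ran from 7.36 to 206 with a median of 35.2, beside a median of 34.9 over all optimal peaks. Many peaks of ordinary strength thus accompanied a few strong ones, and 14 of the 28 were above the median rank of the whole set.

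The 3 strongest Ikzf1 peaks lay inside the gene, far from the TSS. The first, at chr11:11744294-11744441, had a signal of 206 (rank 531) and lay 59422 bp downstream of the TSS. It ranked 602 in replicate 1 and 632 in replicate 2. The second, at chr11:11716620-11716979, had a signal of 189 (rank 694) and ranked 396 and 1148 in the replicates. The third, at chr11:11726828-11727187, had a signal of 159 (rank 1016) and ranked 1108 and 1087. All 3 were therefore among the strongest intervals of either replicate, although the second stood higher in replicate 1. A share of 3.20% of genes had a peak at least as strong as the first.

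Along Ikzf1 the peaks fell into 4 stretches. The 7 upstream peaks lay 11.8 to 29.8 kb before the TSS with signals of 26.7 to 127, the strongest ranking 1634. The first 15 kb of the gene held 8 peaks, 4.99 to 12.6 kb from the TSS, with signals of 14.2 to 74.8. These came from the crowded stretch, and none ranked above 4412. The middle stretch held 11 peaks, 23.4 to 60.3 kb into the gene, with signals of 7.36 to 206, and included the 3 strongest. The last 2 peaks, 80.7 and 81.4 kb into the gene, were nearer to the TSS of Fignl1, which encodes an AAA ATPase, than to that of Ikzf1. A summit within 1 kb of the outermost Ikzf1 TSS was not listed, where 29.3% of genes had one, and the nearest lay 4994 bp away. Within 10 kb of the outermost TSS lay 6 peaks at Ikzf1, 8 at Ikzf3, 3 at Ikzf4 and none at Ikzf2 or Ikzf5, where 43.8% of genes had at least 1.

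That gap at the start of Ikzf1 also appeared below the optimal threshold. The relaxed lists keep 300000 intervals each, background included. Within 1 kb of the outermost TSS, the best interval of the pooled relaxed list ranked 262385, replicate 1 had its best at rank 73450 and replicate 2 had none. RefSeq (GRCm38.p6) gives an Ikzf1 promoter with its start at position 11685925 of chromosome 11, near the end of the stretch searched. Its 250 upstream bases overlapped 0 optimal peaks. RefSeq gives another Ikzf1 promoter farther inside the gene, with its start at position 11690177. Its 250 upstream bases (chr11:11689927-11690176, plus strand) overlapped 2 weak optimal peaks. The better had a signal of 20.9 (rank 27483) and its summit at position 11690226, just past this start and outside these bases. The weaker had a signal of 14.2 (rank 29508) and its summit at position 11689956. Both peaks fell on 1 interval in each replicate, which ranked 10554 in replicate 1 and 43760 in replicate 2. The sequence is given because it is the only annotated Ikzf1 promoter in that table with a peak. The capital marks the summit of the weaker peak, and none of the 14 element forms was found in the sequence.
Ikzf1 internal promoter: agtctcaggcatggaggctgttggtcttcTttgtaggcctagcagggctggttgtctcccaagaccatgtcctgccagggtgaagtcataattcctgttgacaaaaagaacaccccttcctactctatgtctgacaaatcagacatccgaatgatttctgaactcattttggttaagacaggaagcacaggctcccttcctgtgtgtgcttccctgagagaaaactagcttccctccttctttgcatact

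Ikzf3 encodes Aiolos, which acts in B cell maturation. It lies at chr11:98464610-98546031 on the minus strand, and its 20 peaks came to 15.2 per 100 kb of window. As many peaks were found at 69 genes (0.335%), and a density as high at 0.690% of genes. The median signal of 53.8 was above that of Ikzf1, and 13 of the 20 peaks were above the median rank of the whole set. The assignment to Ikzf3 depended on the rule more than it did for Ikzf1: 6 of the 20 peaks had the Ikzf3 TSS as their nearest TSS, compared with 25 of 28 for Ikzf1. The other 14 were nearest to Mien1, Zpbp2 or Ormdl3, neighbours of Ikzf3.

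The 2 strongest peaks of the family flanked the Ikzf3 start. One, at chr11:98537529-98537758, lay 8388 bp into the gene with a signal of 241 (rank 350). Its overlapping intervals ranked 315 in replicate 1 and 400 in replicate 2. The other, at chr11:98547409-98547577, lay 1471 bp upstream of the TSS with a signal of 234 (rank 390), and ranked 424 and 364. The replicates thus placed both peaks at nearly the same height. A share of 2.20% of genes had a peak as strong as the first. The third strongest, at chr11:98550229-98550588, had a signal of 145 (rank 1245) and ranked 1471 and 1280. It was 4378 bp upstream of Ikzf3 and 688 bp from the TSS of Zpbp2, which encodes a zona pellucida binding protein, so its position does not tell these genes apart.

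At the Ikzf3 promoter itself the peaks were of middling strength. A summit 28 bp from the TSS had a signal of 33.2 and ranked 35224 in replicate 1 and 11262 in replicate 2, which places it higher in replicate 2. A summit at 634 bp had a signal of 44.2 and ranked 9247 and 15440, higher in replicate 1. Beyond the first 15 kb the gene held 9 further peaks, 40.9 to 75.0 kb from the TSS, with signals of 23.2 to 123. Of these, 8 were nearest to the TSS of Mien1, beyond the 3′ end of Ikzf3, although all 9 summits lay inside Ikzf3. A group of 3 peaks 41.3 to 43.0 kb upstream, with signals of 45.8 to 69.3, sat at the start of Ormdl3, which encodes a regulator of sphingolipid synthesis.

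**Figure D1:**
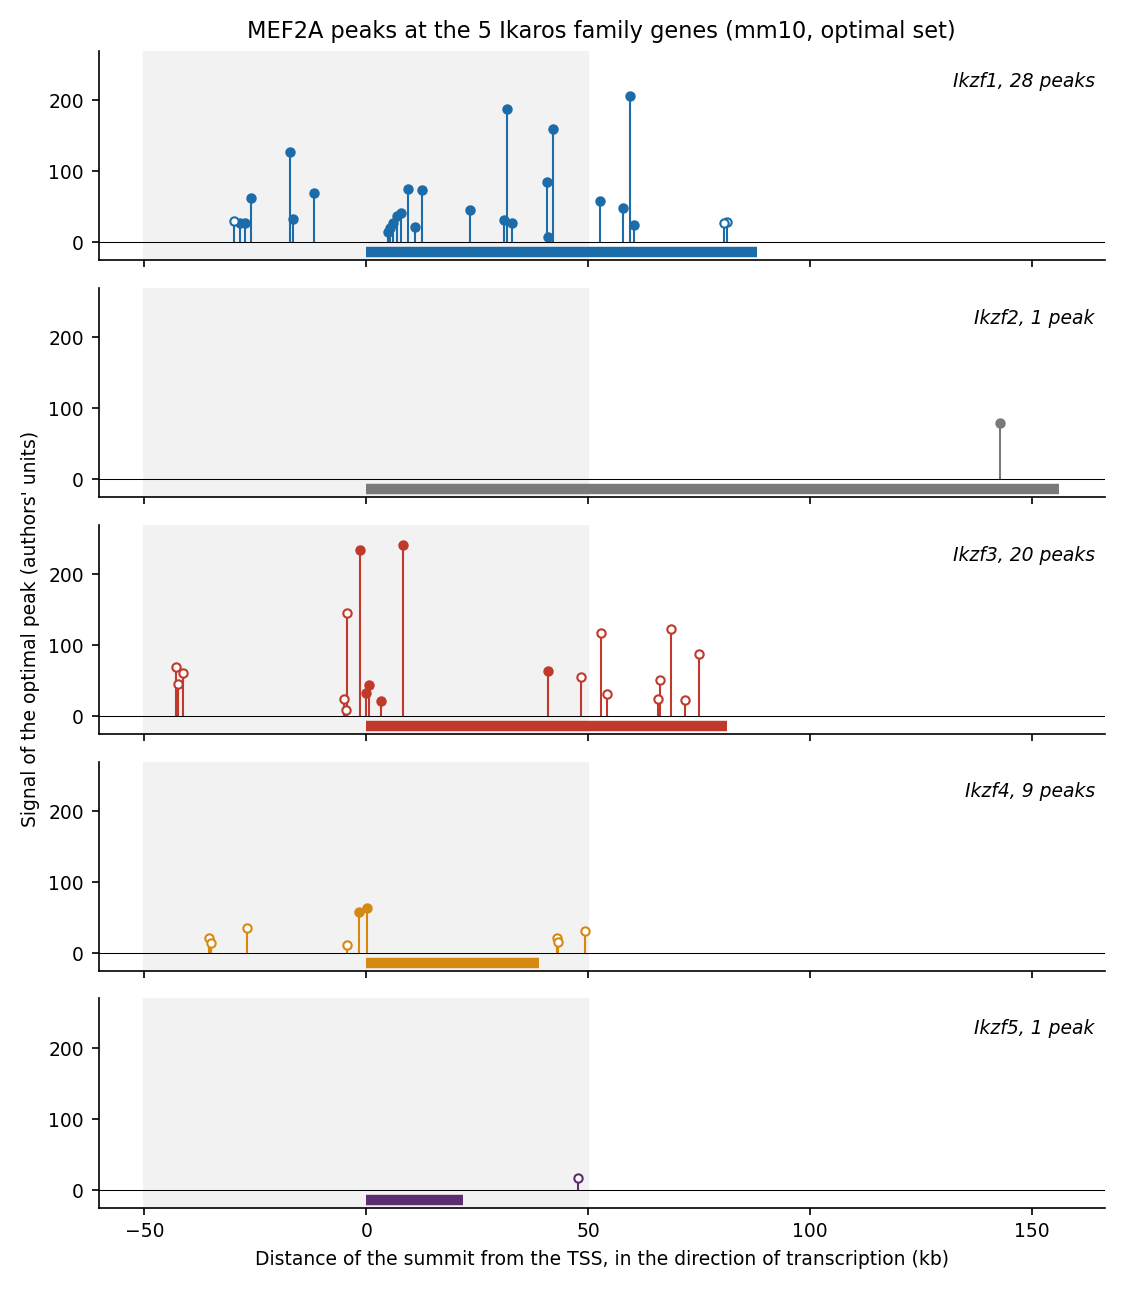
Signal of each optimal MEF2A peak (vertical axis, authors' units) against the distance of its summit from the TSS of each Ikaros family gene in the direction of transcription (horizontal axis, kb). Thick bars are genes, grey bands are 50 kb to either side of the TSS, and open points have another gene's TSS nearest. The 28 peaks of Ikzf1 and 20 of Ikzf3 spread over and before the genes, with the highest signals of 206 and 241, while Ikzf2 and Ikzf5 have 1 peak each.

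Ikzf4 encodes Eos and lies at chr10:128630839-128669671 on the minus strand, among short, closely packed genes. Its 9 peaks (9 per 100 kb) were matched or exceeded at 7.69% of genes. Of the 9, 1 lay inside Ikzf4 and 2 had its TSS nearest, while 7 were nearest to Rab5b, Rps26, Cdk2 or Suox. The strongest, at chr10:128669280-128669639, was 211 bp into the gene with a signal of 64.3 (rank 5775), and ranked 6599 in replicate 1 and 5780 in replicate 2. The next, at chr10:128671148-128671507, was 1657 bp upstream and inside Suox, which encodes sulfite oxidase. It had a signal of 58.2 (rank 6819), and ranked 20229 in replicate 1 and 4833 in replicate 2, so replicate 2 held it much higher. The third, at chr10:128696408-128696767, had a signal of 35.3 (rank 15504), ranked 13003 and 25977, and lay 304 bp from the TSS of Rab5b, an endosomal GTPase gene.

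The Ikzf4 promoter peak depended on the annotation used. RefSeq on mm10 gives Ikzf4 a length of 38833 bp, whereas GENCODE vM1 on mm9 gives its protein-coding transcripts 15149 bp. The mm9 list held 3 peaks in the Ikzf4 window, ranked 7071, 7320 and 13713, and the nearest of them lay 16803 bp from a GENCODE Ikzf4 TSS. The first was in the coding sequence of Suox and the other 2 were intergenic. With GENCODE starts, no peak of the mm9 list lay at an Ikzf4 promoter.

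Ikzf2 encodes Helios and is the longest of the 5 genes (chr1:69531207-69687351, minus strand, 156145 bp), yet it had 1 peak, or 0.485 per 100 kb. That peak, at chr1:69544236-69544595, lay inside the gene 142935 bp downstream of the TSS, toward the 3′ end. Its signal of 79.7 ranked 3924, and 19.1% of genes had a peak as strong. It ranked 6512 in replicate 1 (signal 23.0) and 3373 in replicate 2 (signal 56.6), so it was a clear peak in each replicate list. Nevertheless its interval was not in the conservative set. Among the 3924 optimal peaks at least as strong, only 5 (0.127%), this one included, were missing there. In replicate 1 it was overlapped by 2 intervals and in replicate 2 by 1; whether this bears on its absence was not tested. Near the Ikzf2 TSS no interval was listed within 1 kb in the pooled list or in either replicate list, background included, where 58.6% of genes had one in the pooled list. The mm9 list also had 1 peak at Ikzf2, in an intron 141561 bp from the TSS, with rank 3672.

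Ikzf5 encodes Pegasus and lies at chr7:131388649-131410518 on the minus strand. Its 1 peak, at chr7:131362521-131362880, was weak, with a signal of 17.2 (rank 28810), and 69.4% of genes had one as strong. It lay 47817 bp downstream of the Ikzf5 TSS, outside the gene, and 142 bp from the TSS of 2310057M21Rik. It ranked 76012 in replicate 1 and 20999 in replicate 2, a large gap, and was not in the conservative set. At the Ikzf5 TSS the pooled relaxed list held an interval of rank 36938, with best ranks of 48565 and 52281 in the replicates. That interval did not enter the optimal set. With the strongest intervals of replicate 1 alone no peak was given to Ikzf5, and with those of replicate 2 alone there were 2.

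**Figure D2:**
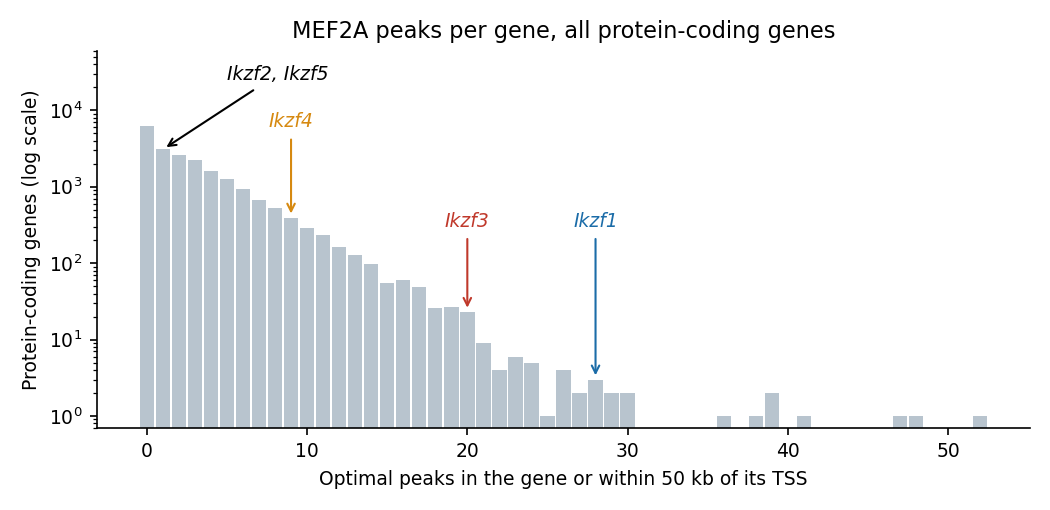
Number of protein-coding genes (vertical axis, log scale) by the number of optimal MEF2A peaks in the gene or within 50 kb of its TSS (horizontal axis), with the 5 Ikaros family genes marked. Ikzf1 with 28 and Ikzf3 with 20 peaks stand in the far right tail, Ikzf4 with 9 nearer the middle of the tail, and Ikzf2 and Ikzf5 with 1 among the most common values.

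By number of peaks the order was Ikzf1, Ikzf3, Ikzf4, then Ikzf2 and Ikzf5, which tied. By strongest peak the order was Ikzf3 (rank 350), Ikzf1 (531), Ikzf2 (3924), Ikzf4 (5775) and Ikzf5 (28810). Ikzf2 therefore moved ahead of Ikzf4 when strength replaced number. Counting only replicate intervals that overlap an optimal peak, the best ranks in this order of genes were 315, 396, 6512, 6599 and 76012 in replicate 1. In replicate 2 they were 364, 632, 3373, 4833 and 20999, the same order of genes. The step between Ikzf2 and Ikzf4 in replicate 1 was small, and with 1 group of 2 replicates no step could be tested. A peak among the strongest 5% was present at Ikzf1 and Ikzf3 (3 peaks each) and at 8.64% of all genes.

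Replicate support of the 59 peaks was close to that of the whole set. Both relaxed replicate lists overlapped 58 of the 59 (98.3%), beside 97.6% of all optimal peaks. The exception was a weak Ikzf1 peak 10.9 kb into the gene, which no interval of replicate 1 overlapped and which ranked 19701 in replicate 2. Against only as many of the strongest intervals of each replicate as the optimal set holds, 37 of 59 (62.7%) were supported in both, beside 64.7%. The same interval was in the conservative set for 42 of 59 (71.2%), beside 73.2%. By gene this was 22 of 28 at Ikzf1, 16 of 20 at Ikzf3, 4 of 9 at Ikzf4 and 0 of 2 at Ikzf2 and Ikzf5 together. Ranks of the weaker peaks differed widely: at Ikzf1 they reached 161529 in replicate 1 and 67914 in replicate 2.

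**Figure D3:**
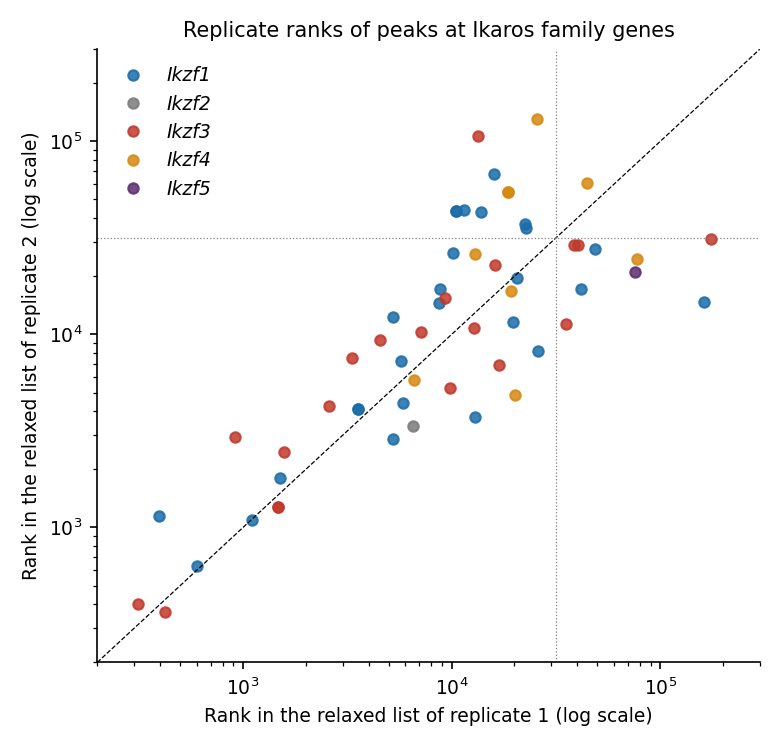
Rank of the strongest overlapping interval in the relaxed list of replicate 1 (horizontal, log scale) and replicate 2 (vertical, log scale) for 58 optimal peaks at Ikaros family genes, colored by gene. The dashed line marks equal ranks and the dotted lines the rank equal to the size of the optimal set. The 3 strongest peaks of Ikzf1 and of Ikzf3 lie at ranks of 315 to 1471. Most are near the line, but the second Ikzf1 peak (396 in replicate 1, 1148 in replicate 2) is off it. The points scatter more widely at weaker ranks.

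On mm9, where each peak could be read against sequence, the list of 16839 peaks gave 17 peaks to Ikzf1, 14 to Ikzf3, 3 to Ikzf4, 1 to Ikzf2 and 1 to Ikzf5, or 36 in all. All 5 genes again had a peak, where 55.2% of genes did, and Ikzf1 and Ikzf3 had 10 or more, where 0.911% did. As many as at Ikzf1 were found at 17 genes (0.0770%) and as many as at Ikzf3 at 36 genes (0.163%). Their strongest peaks ranked 595 and 272. Of the 36 summits, 23 lay in introns, 11 between genes and 2 in exons (the Suox coding sequence and an untranslated part of Ormdl3). The median GC content of the 101 bases at the summits was 47.5%, and 49.5% over all mm9 peaks.

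The MEF2 element had a share at these genes near that of the whole list. Its consensus, which adds C or T before the core and A or G after it, lay within 50 bp of the summit on either strand in 2 of 36 peaks (5.56%, Wilson 95% interval 1.54% to 18.1%). Of all mm9 peaks 7.13% held it, which is within that interval. The first was CTATTAATAG at chr11:98450302-98450311, 20 bp from a summit 1645 bp upstream of Ormdl3 in the Ikzf3 window (rank 6708). The second was TTATAAATAG at chr11:11591854-11591863, 32 bp from a summit in an Ikzf1 intron (rank 13207), 1492 bp from a GENCODE Ikzf1 TSS. Both peaks were of modest rank. The Ikzf1 peak of rank 940 had the core TATAAATA at chr11:11616823-11616830. Neither of the strongest Ikzf3 peaks (ranks 272 and 403), nor the first Ikzf1 peak or the Ikzf2 peak, had any form of the element in the bases printed above.

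The Ikaros element TGGGAA was found more often. It lay within 50 bp of the summit on either strand in 13 of 36 peaks (36.1%, interval 22.5% to 52.4%), and in 8.94% of all mm9 peaks. By gene window these were 7 of 17 peaks at Ikzf1 (41.2%), 4 of 14 at Ikzf3 (28.6%), 1 of 3 at Ikzf4, 1 of 1 at Ikzf5 and 0 of 1 at Ikzf2. The 7 at Ikzf1 had the Ikzf1 TSS nearest. The 4 in the Ikzf3 window were nearest to Grb7 or Ormdl3, and none of the 5 peaks nearest to the Ikzf3 TSS held the element. Those nearest to Grb7 (ranks 1921 and 13910) nevertheless lay in Ikzf3 introns, 30446 and 44936 bp from the Grb7 TSS. Those in the Ikzf4 and Ikzf5 windows were nearest to Suox and 2310057M21Rik. Of 201 genes with 10 or more mm9 peaks, the median share was 8.33%. Only Ikzf1 itself reached 41.2%, while 9 genes (4.48%), Ikzf1 and Ikzf3 included, reached 28.6%. The interval of Ikzf3 alone, 11.7% to 54.6%, begins not far above the share of all peaks. These intervals cover counting error over peaks only, the peaks of 1 gene are neighbours, and a match is a description of letters, not a bound site.

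The 13 Ikaros elements were centred 12 to 40 bp from the summit (median 28 bp), 8 on the plus and 5 on the minus strand. None overlapped a MEF2 core, an NF-kB element or an ETS-IRF element. At the Ikzf1 peak of rank 940 the element (chr11:11616816-11616821) stood just before the MEF2 core, and the peak upstream of Ormdl3 also held both, with TGGGAA at chr11:98450352-98450357. The strongest Ikzf1 peak carried it on the minus strand at chr11:11644415-11644420. The clearest case of a neighbouring element was an upstream Ikzf1 peak of rank 4546, where an ETS-IRF element (chr11:11559002-11559011) ran directly into TTCCCA, shown in capitals.
Ikzf1 upstream, rank 4546, chr11:11558947-11559047: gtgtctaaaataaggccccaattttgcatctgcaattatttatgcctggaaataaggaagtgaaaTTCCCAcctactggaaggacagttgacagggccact

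The share with TGGGAA was similar among the stronger peaks and closer to that of all peaks in wider windows. Among the 22 peaks at or above the median mm9 signal, 9 (40.9%) had the element, beside 8.94% of all such peaks. Within 100 bp of the summit the 36 peaks still gave 13, while the share of all peaks rose to 17.5%. Over the whole interval the counts were 16 (44.4%) beside 26.7%, and for the shorter core GGGAA within 50 bp 18 (50%) beside 33.1%. Of these windows and forms, the difference was widest within 50 bp and for the full 6 letters.

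The other elements showed smaller differences or none. The PU.1 and SpiB element GAGGAAGT was in 3 of 36 peaks (8.33%, interval 2.87% to 21.8%) and in 3.24% of all. The AP-1 element TGANTCA was in 3 (8.33%), below the 12.2% of all peaks, with 2 copies at the strongest Ikzf3 peak (chr11:98398978-98398984 and chr11:98398998-98399004). The E2A elements CAGCTG and CACCTG were in 4 (11.1%), beside 18.4%. The ETS-IRF element was in 2 (5.56%, beside 4.39%), and the NF-kB element and the octamer ATGCAAAT in 1 each (2.78%), beside 7.0% and 3.12% of all peaks. Elements of RUNX (TGTGGTTT), EBF1, CTCF and the GC box (GGGGCGGGG) were found in 0 of 36, for which the interval reaches 9.64%, and in 1.18% to 2.83% of all peaks. All of these shares but that of TGGGAA had intervals that include the share of all peaks. Of the 36 peaks, 15 (41.7%) held none of the forms searched, beside 43.6% of all.

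**Figure D4:**
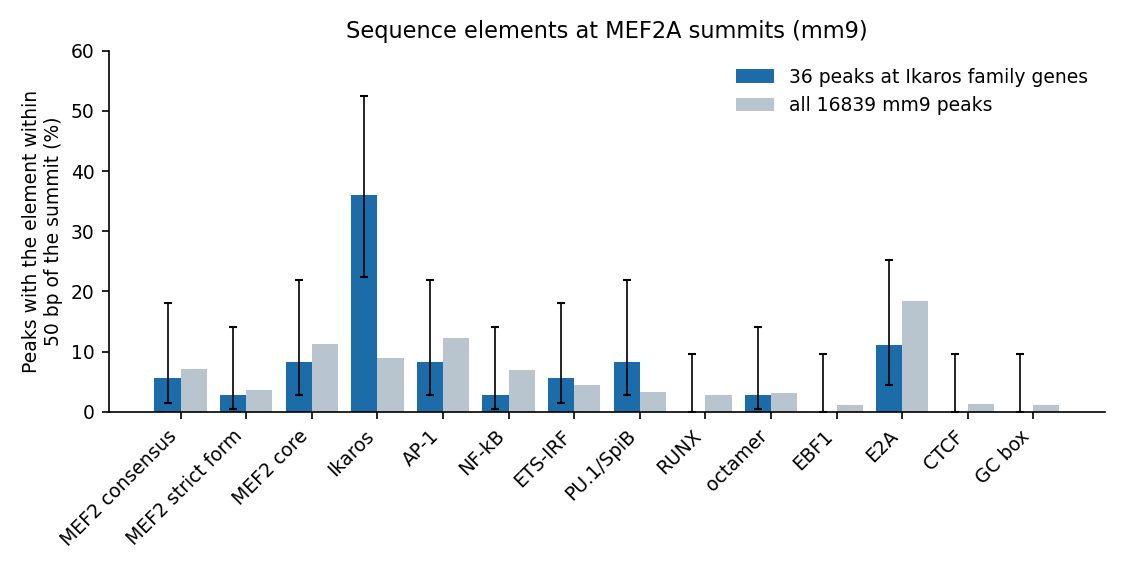
Share of mm9 peaks with each sequence element within 50 bp of the summit (vertical axis, percent) for the 36 peaks at Ikaros family genes (dark bars, with Wilson 95% intervals) and for all 16839 peaks (light bars). The Ikaros element stands at 36.1% beside 8.94%, and the MEF2 consensus at 5.56% beside 7.13%.

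Genes that work with the Ikaros proteins had a median peak density near that of all genes, though more of them had at least 1 peak. Of 18 genes of the NuRD, SIN3, CtBP and BRG1 complexes, 17 (94.4%) had a peak, where 70% of all genes did. Chd4, the NuRD remodelling ATPase, had none in the optimal set and 1 in the mm9 list. The median of these 18 genes was 2 peaks and 2.00 per 100 kb, the same number of peaks as the median gene. The strongest peaks were at Hdac1, a deacetylase (signal 319, rank 112), the NuRD subunits Gatad2b (178) and Gatad2a (124), and Mta2 (86.7). All 6 genes of the cereblon ligase list had a peak, with a median of 2.5. The substrate receptor gene Crbn had 9 peaks with a best signal of 84.8, the adaptor gene Ddb1 a best of 205, the scaffold gene Cul4a 51.2 and the RING gene Rbx1 47.2.

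Lymphoid genes described as Ikaros or Aiolos targets had more. Of 22, 21 (95.5%) had a peak, with a median of 5 peaks, and Cd8a, a T cell coreceptor gene, had none. These counts are not all independent. Rag1 and Rag2 shared their strongest peak, as did Blnk and Dntt, and Vpreb1 and Igll1. Foxo1 and Irf4 are also in the B lineage list below. The strongest peaks were at the transcription factor gene Foxo1 (237), the B cell coreceptor gene Cd22 (220), the B cell receptor gene Cd79b (214) and the cell cycle inhibitor gene Cdkn1a (192). The peak counts of these lists are read beside the 70% of all genes with a peak.

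Other lymphoid transcription factor genes were the closest comparison for Ikzf1 and Ikzf3. All 15 B lineage factor genes had a peak, with a median of 12 peaks and 9.76 per 100 kb, and 11 of them had 10 or more, where 5.78% of all genes did. The strongest were at Pou2f2 (382, rank 29), Pou2af1 (249), Foxo1 (237) and Ebf1 (226). Ebf1 had 48 peaks, more than Ikzf1, over a window of 440.0 kb (10.9 per 100 kb). The 3 RUNX genes had 18 peaks (Runx1), 16 (Runx3) and 13 (Runx2), with best signals of 251, 157 and 69.2. No gene of these 5 lists reached the density of Ikzf1 (20.3 per 100 kb) or Ikzf3 (15.2), and the densest were Runx3 (14.9) and Irf4 (14.0). The lead of Ikzf3 over Runx3 was small, and merging overlapping intervals left Ikzf3 with 19 peaks. On mm9 Ikzf3 had 14 peaks (10.7 per 100 kb), beside 11 peaks each at Runx3 and Spib, so its place above the listed genes is not firm. At 9 per 100 kb on mm10, Ikzf4 was near the median of the B lineage list. That place rests on the window rule, as 7 of its 9 peaks had another gene's TSS nearest. On mm9 Ikzf4 had 3 peaks (2.93 per 100 kb), and 20.7% of genes had as many. Ikzf2 and Ikzf5 were below the median of all genes. Peaks were also near all 7 B cell markers and 4 of 5 T cell markers (80%, none at Cd8a), where 70% of all genes had one. Peak lists hold no expression, so the labelled cell type was not checked by its markers.

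**Figure D5:**
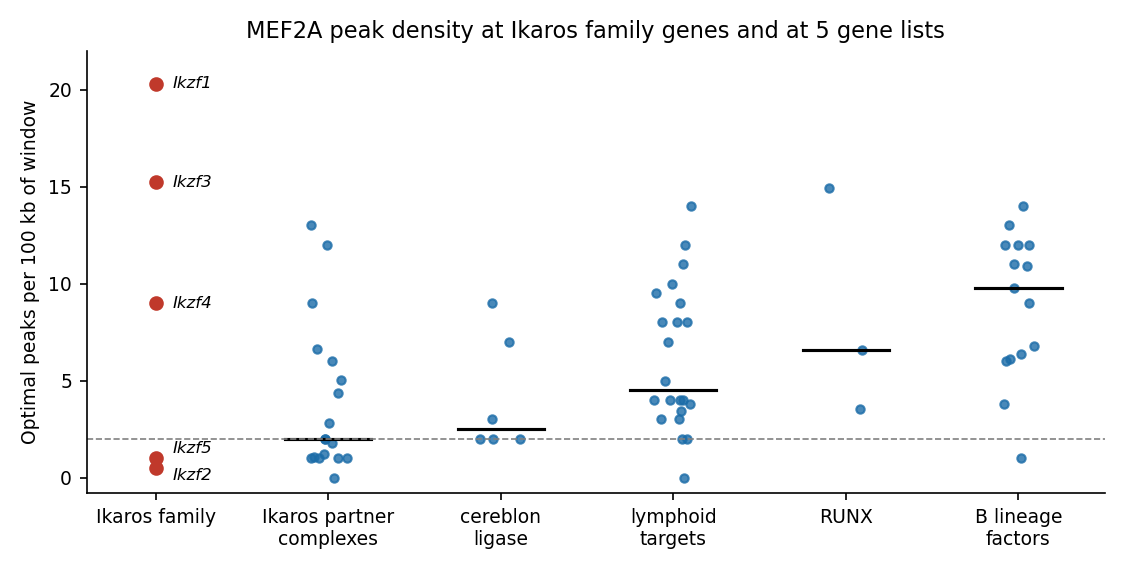
Optimal peaks per 100 kb of window (vertical axis) for the 5 Ikaros family genes and for each gene of 5 lists (points, with the list median as a black line). The dashed line is the median of all protein-coding genes, 1.98. Ikzf1 at 20.3 lies above every listed gene, and Ikzf3 at 15.2 only just above Runx3 at 14.9.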

How the data were processed

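MEF2A ChIP-seq of 2 biological replicates of CH12.LX was deposited as 6 peak lists, 5 on mm10 and 1 on mm9. Per the texts deposited with the samples, relaxed lists were called against a control for each replicate and for the pool, and the optimal and conservative sets derive from these 3; the mm9 list came from the mm9 alignments of both replicates. Which peak caller and aligner were used is not given in the sources used here. Each peak's signal is the value deposited by the authors, and signals and ranks were compared only inside 1 list. Score and p columns were not used.

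Genes came from RefSeq (GRCm38.p6) with 1 outermost TSS each, their strand being looked up by symbol or synonym in GENCODE vM1 (20583 genes matched). On mm9 every protein-coding GENCODE vM1 transcript start was used, readthrough transcripts left out. Sequence came from mm9 (NCBIM37), no coordinate was converted between builds, and coordinates are 1-based. Peaks were matched when they overlapped by 1 bp or more. The second Ikzf1 promoter is the RefSeq sequence on GRCm38.p6. Elements were exact matches on either strand. The counting and matching steps were tested on simulated peaks and sequence.

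The members and gene lists were chosen with earlier results of these data known. Named genes are the members with their 3 strongest peaks and the genes nearest to those, and, of every list, at most 4 members (those with the strongest peaks) and any without a peak. Other genes and peaks named were picked after their values were seen. Wilson intervals (95%) cover counting error over peaks, not the spread between replicates. With 1 group no test across samples was possible. Alternatives covered the peak set, signal, window, TSS rule, replicate, build and element form. The software was Python 3.11.15, matplotlib 3.10.9, scipy 1.17.1, pandas 2.3.3 and numpy 2.4.6.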

Additional observations from a re-analysis of the deposited data

How the results depend on the processing

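No paired analysis was possible because the replicates form 1 group. By summits of the conservative set itself (28217 peaks), 3 of 5 members had a peak: Ikzf4 had 5 peaks, Ikzf2 and Ikzf5 had 0. The 4 of 9 given above for Ikzf4 counted only optimal intervals found unchanged in that set. With peaks at or above the median signal only, the total fell from 59 to 31 (Ikzf1 14, Ikzf3 13, Ikzf4 3, Ikzf5 0). Counting by nearest TSS gave 34 (Ikzf3 6, Ikzf4 2, Ikzf5 0), and the mm9 list 36 (Ikzf1 17, Ikzf4 3). Within 50 kb of the TSS alone, gene body left out, Ikzf3 had 13 and Ikzf2 had 0. A 10 kb window with the gene body left Ikzf4 with 3 and Ikzf5 with 0. Leaving out a replicate gave 4 to 5 members with a peak, 51 to 63 peaks, 23 to 32 at Ikzf1, 1 at Ikzf2, 19 to 22 at Ikzf3, 6 to 8 at Ikzf4, 0 to 2 at Ikzf5, and 57 to 62 of 62 listed genes with a peak. The share of all genes with a peak, 70%, was 67.2% in the conservative set, 54.2% at or above the median signal, 51.6% at 10 kb, 78.6% at 100 kb, 68% by TSS alone, 51.3% by nearest TSS, 70% to 71% without a replicate and 55.2% on mm9. Support by the strongest intervals of both replicates held for 37 of 59 peaks. The MEF2 consensus, in 2 of 36 peaks, was in 1 in its strict form (2.78%, beside 3.64% of all peaks), 6 with 1 mismatch (16.7%, beside 23.6%), 4 within 100 bp (11.1%, beside 8.89%), 5 over the whole interval (13.9%, beside 10.3%), 1 of 22 at or above the median signal (4.55%, beside 9.86%) and 1 of 25 at 10 kb (4%, beside 7.13%). It was thus below the share of all peaks near the summit and above it in the wider windows, on counts too small to read a direction from. The Ikaros element was in 7 of 25 at 10 kb (28.0%, beside 8.94%). For both elements the 10 kb setting narrowed the member peaks only, and the share beside it is of all 16839 mm9 peaks. The alternatives for the Ikaros element, and the merging of overlapping peaks, which left 55 of 59, were chosen after seeing the data. Read depth is unknown, so no value carries a sequencing error. The cause of these shifts was not tested.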

Other observations

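Some of the intervals counted as separate peaks overlap one another. At Ikzf1 the 28 peaks merged into 26, at Ikzf3 the 20 into 19 and at Ikzf4 the 9 into 8. The weaker partner of such a pair can have a very low signal: the peaks of rank 31204 at Ikzf1 (signal 7.36) and rank 30850 at Ikzf3 (signal 8.68) each overlap the same replicate intervals as a much stronger neighbour, at ranks 3569 and 4122 in the replicates for Ikzf1 and at ranks 1471 and 1280 for Ikzf3.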
